A study of Gallus gallus with 2 samples.

Results

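Collagens, laminins, nidogens and the integrins that bind them were described in hearts of chicken (Gallus gallus) embryos given a nitric oxide (NO) donor or its vehicle in the egg. Members were all rows whose symbol has the form of a collagen chain, a laminin chain, a nidogen or an integrin chain, which gave 64 of 16737 genes, each on 1 row. By role, 7 were fibrillar collagens, 20 were basement membrane genes, 21 were other collagens, 9 were integrin alpha chains and 7 were integrin beta chains. COL1A1, LAMA1, LAMA5, ITGA3, ITGA5 and ITGA7 were not matched by symbol and are not analysed here.

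Brown leghorn eggs were kept at 37 °C for 24 h and then received 20 µl through the air sac, either 1X PBS (control) or Spermine NONOate at 10 µM (NO). Hearts were taken at 45 h, a time that the labels do not tie clearly to the first incubation or to the injection. Each group is 1 pool of 10 hearts with 1 library, so the control pool and the NO pool are compared. No group received spermine alone, so effects of NO and of spermine cannot be told apart.

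Collagens are secreted proteins whose chains wind into a triple helix. Fibrillar collagens assemble into the fibrils of loose connective tissue and cartilage, whereas type IV collagen forms the sheet-like network of basement membranes, to which laminins, nidogens and the collagen XVIII core protein are joined. Integrins are receptors made of an alpha and a beta chain that link this matrix to the cytoskeleton. In the early heart tube a basement membrane underlies the myocardium, and the cardiac jelly between myocardium and endocardium holds both kinds of matrix.

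Values are FPKM, fragments scaled to transcript length and library size, so levels of different genes are compared per length. Each difference is the log2 of NO over control after 1 was added to both FPKM, a scale that understates how far low genes differ, and folds are on the same scale. A gene counts as measured if its 2 values average 1 FPKM or more. The bracketed ranges are 95% intervals that cover estimation within each library and not the spread between pools. With 1 library a group there is no replicate check and no test.

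Both libraries carried heart muscle markers, with all 9 of the cardiomyocyte list measured, but the libraries also differed widely in markers of other tissues. Summed FPKM of the 9 cardiomyocyte markers was 2702 in the control and 15925 in the NO pool, with 7 at least 2-fold higher in NO and none at 0. For neural crest markers the sums were 249.6 and 45.6 (7 of 9 measured at least 2-fold lower), and for endoderm and foregut markers 697 and 192 (4 of 7 lower). Neural markers summed to 349 and 161 FPKM, with 5 of 6 lower by 2-fold and 1 at 0 in the NO pool. Epicardial markers summed to 57.8 and 41.1 FPKM, with 2 of 6 lower by 2-fold and 1 at 0 in the NO pool. Recovered depth summed to at least 18246222 fragments in the control and 28767956 in the NO pool. In such pooled tissue, fewer cells of a type and less RNA per cell cannot be told apart.

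Of the 64 members, 43 were measured, and their counts past 2-fold were near those of all genes. Together the members held 0.281% of summed FPKM in the control pool and 0.199% in the NO pool. Those at least 2-fold lower in the NO pool numbered 5 of 43, against 10.3% of all 10824 measured genes, and 1 of 43 was at least 2-fold higher, against 3.65%. At 1.5-fold, 13 members were lower and 5 higher, against 22.4% and 9.59% of all genes. All of these shares lie near the background, so the counts do not set the members apart. After trimmed mean scaling 5.29% of all genes were higher and 7.73% lower by 2-fold, and after upper quartile scaling 5.11% and 7.85%. Intervals of the 2 libraries were apart for 35 of 43 members, and for 70.9% of all measured genes. The members' median log2 difference was −0.34, beside −0.11 for all measured genes.

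**Figure D1:**
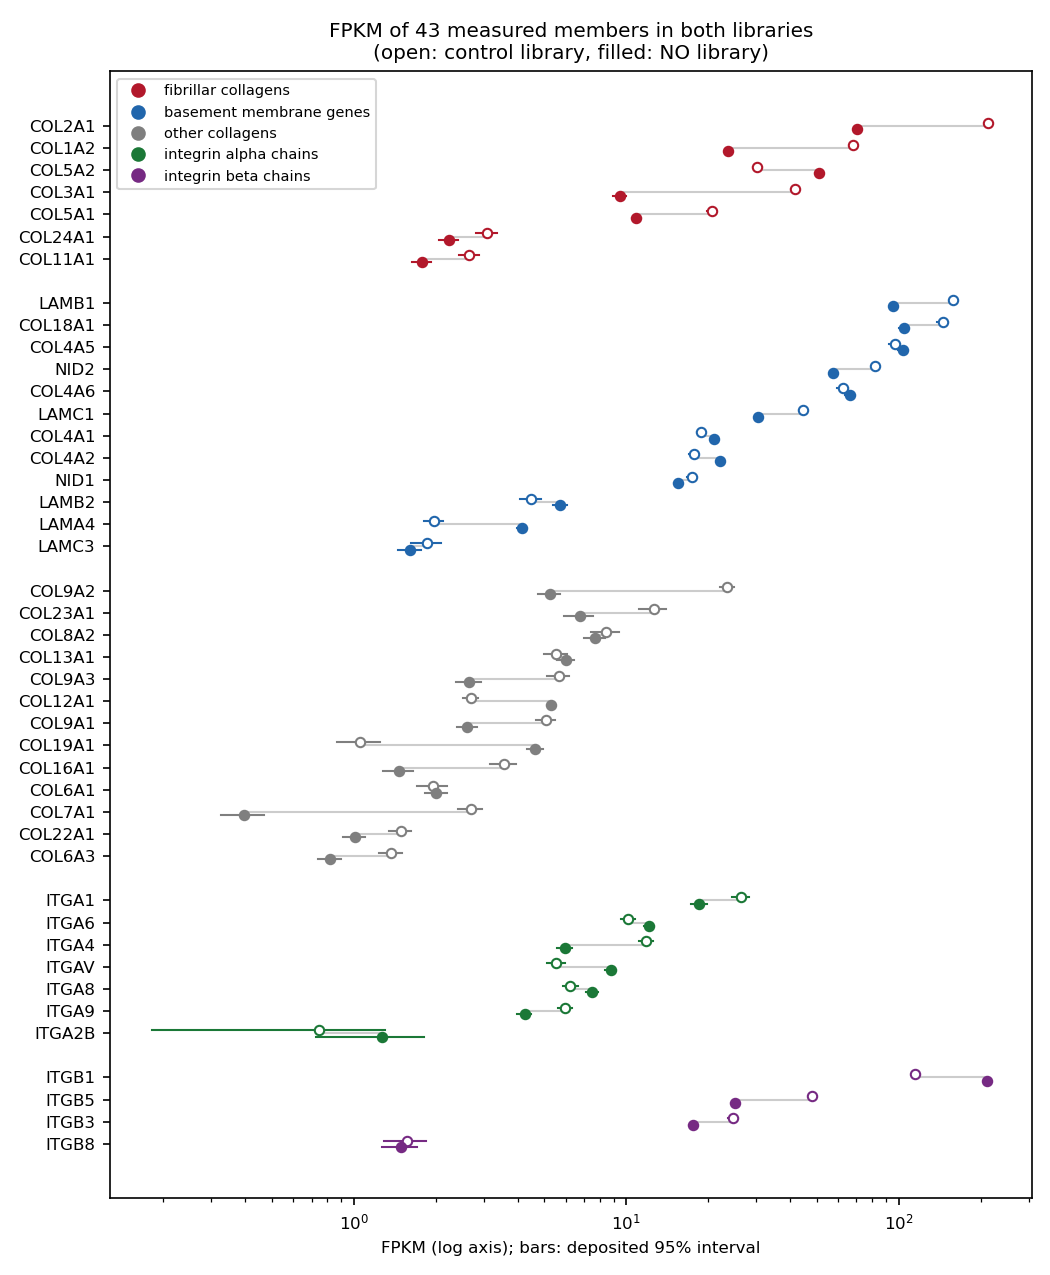
FPKM of the 43 measured members (log axis), with open points for the control library and filled points for the NO library; bars are the deposited 95% intervals and colours mark roles. COL2A1 is the highest member in the control library, at 213 FPKM, and ITGB1 the highest in the NO library, at 212 FPKM.

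The order of levels among the 64 members shifted at the top. In the control pool the 5 highest were COL2A1, LAMB1, COL18A1, ITGB1 and COL4A5. The NO pool held the same 5 genes in the order ITGB1, COL18A1, COL4A5, LAMB1 and COL2A1, with COL18A1 and COL4A5 both at 104 FPKM and within each other's intervals. COL2A1 thus stood at rank 1 in one library and rank 5 in the other, and COL3A1 at rank 11 and rank 19.

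Fibrillar collagens were lower in the NO pool, with COL5A2 as the exception. Of the 7 members, all measured, 3 were at least 2-fold lower (COL3A1, COL2A1 and COL1A2) and 0 at least 2-fold higher. Their median log2 difference was −0.86, which is 0.75 below that of all genes, and their summed FPKM was 379.6 in the control and 169.6 in the NO pool. That sum was 2.24 times lower, and without COL2A1 it was 1.68 times lower. Intervals were apart for 7 of 7, against 70.9% of all measured genes. Past 2-fold, the all-gene shares were 10.3% lower and 3.65% higher. These counts rest on only 7 genes, and their distance from the all-gene shares was not tested.

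COL3A1, the chain of type III collagen in pliable tissues such as vessel walls, lies at chromosome 7, 571200 to 611944 in galGal4 (ENSGALG00000002552). It was at 41.7 FPKM (40.3 to 43.2) in the control pool and 9.48 FPKM (8.96 to 10.0) in the NO pool. This was the lowest log2 difference of the 43 measured members, at −2.03 (−2.11 to −1.94), or 4.08-fold lower. That rank depends on the pseudocount. With 0.1 in place of 1, COL7A1 was lowest at −2.49, and COL9A2 at −2.14 was close to COL3A1 at −2.13.

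COL2A1, the chain of type II collagen, best known from cartilage and the notochord sheath, lies on the unplaced scaffold JH375554.1, 72264 to 85841 (ENSGALG00000013587). It was at 213 FPKM (210.0 to 216.6) in the control pool and 70.3 FPKM (68.9 to 71.7) in the NO pool, a log2 difference of −1.59 (−1.62 to −1.55). In spite of that difference it was still the highest fibrillar collagen in the NO pool.

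COL1A2, a chain of type I collagen, the main collagen of most connective tissue, lies at chromosome 2, 23702024 to 23740814 (ENSGALG00000009641). It was at 67.9 FPKM (66.6 to 69.3) and 23.7 FPKM (23.1 to 24.3), in control and NO in that order, which is 2.79-fold lower. Its log2 difference was −1.48 (−1.53 to −1.44).

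Type V collagen, which starts and thins fibrils of type I, is built from chains of COL5A1 and COL5A2, and these went opposite ways. COL5A1 (chromosome 17, 7462510 to 7561096) was at 20.6 FPKM (19.9 to 21.3) in the control and 10.9 FPKM (10.5 to 11.3) in the NO pool. COL5A2 (chromosome 7, 447686 to 556916) was at 30.3 FPKM (29.1 to 31.5) and 51.2 FPKM (49.5 to 52.9). COL5A2 was the only fibrillar member above 0, at a log2 difference of 0.74 (0.66 to 0.81), beside −0.86 (−0.93 to −0.79) for COL5A1. The ratio of COL5A1 to COL5A2 was 0.680 (0.645 to 0.717) in the control pool and 0.213 (0.203 to 0.224) in the NO pool.

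The minor fibrillar chains were low in both libraries. COL11A1, a partner of type II collagen in cartilage fibrils, was at 2.65 and 1.78 FPKM, and COL24A1 at 3.09 and 2.23 FPKM. Their log2 differences of −0.39 (−0.51 to −0.28) and −0.34 (−0.46 to −0.21) were closer to the all-gene median than those of the abundant fibrillar chains.

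**Figure D2:**
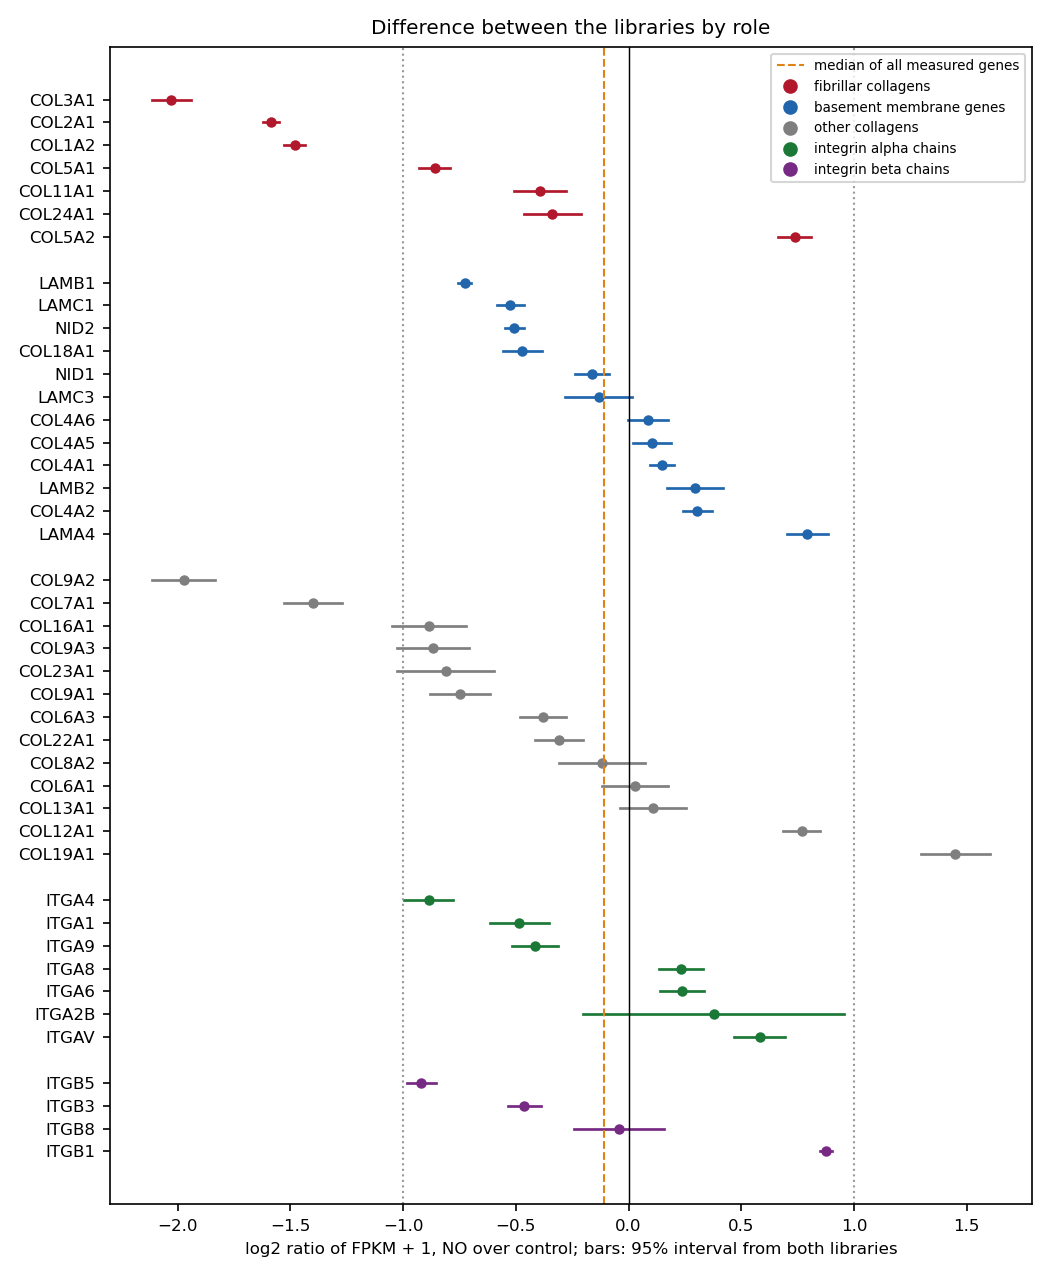
Log2 ratio of FPKM + 1, NO over control, for the 43 measured members, grouped by role, with 95% intervals; dotted lines mark 2-fold and the dashed line the median of all measured genes, −0.11. Fibrillar collagens reach down to −2.03, while the 12 measured basement membrane genes all lie inside the dotted lines. Of all measured genes, 10.3% were at least 2-fold lower and 3.65% at least 2-fold higher.

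Markers of notochord and somite were mostly lower in the NO pool. The notochord and cartilage list had 11 matched genes, of which 7 were measured and 4 were at least 2-fold lower (CHRD, SHH, T and NOG), with 0 higher by 2-fold. CHM went the other way, at 10.2 and 16.2 FPKM, 1.54-fold higher, and holds the largest share of the list's NO sum. Its symbol is that of a Rab escort protein, so it is a poor marker of either tissue. With CHM included, the list summed to 77.5 FPKM in the control pool, over genes from 0.0696 to 24.97. In the NO pool the sum was 33.1 FPKM, over genes from 0.0644 to 16.2, with none at 0. HAPLN1 and SOX5, also measured, were lower in the NO pool by less than 2-fold. HAPLN1 was at 10.5 FPKM in the control and 6.11 FPKM in the NO pool, and SOX5 at 5.31 and 3.21 FPKM. The cartilage genes ACAN and MATN1 were under 1 FPKM in both, at 0.209 and 0.294 FPKM for ACAN and 0.245 and 0.316 FPKM for MATN1. MATN3 and SOX6 were under 1 FPKM in both as well. Somite markers summed to 51.5 and 6.59 FPKM, with both measured genes, TCF15 and PAX1, at least 2-fold lower. The part of such tissue in the collagen values was not tested.

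Basement membrane genes were close to the all-gene median as a group, and none of those measured differed by 2-fold after 1 was added. LAMA4, at 2.10 times its control FPKM as deposited, passed 2-fold with a pseudocount of 0.1. Below the filter, COL15A1 was 3.68 times higher in FPKM, and COL4A3 and COL4A4 were 3.11 and 2.85 times lower. Of 20 members 12 were measured, and 0 passed 2-fold, against 10.3% of all measured genes lower and 3.65% higher. At 1.5-fold, LAMA4 was higher and LAMB1 lower, against 9.59% and 22.4% of all measured genes. With only 12 genes, these counts do not set the role apart. Their median log2 difference was −0.02, with 6 above 0 and 6 below, and it moved to 0.27 after trimmed mean scaling and 0.26 after upper quartile scaling. Summed FPKM of the 20 genes was 653.6 in the control and 530.5 in the NO pool. Within the group, type IV collagens were slightly higher and the abundant laminin chains lower.

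Type IV collagen has 6 chains, of which 4 were measured, all above 0 as deposited and under every scaling tried. COL4A5, the most abundant (chromosome 4, 13861296 to 13934946), was at 96.6 FPKM (92.5 to 100.8) in the control and 104 FPKM (99.5 to 108.2) in the NO pool, which overlap. Its neighbour COL4A6 was at 62.3 FPKM (59.5 to 65.0) and 66.2 FPKM (63.4 to 69.1), which also overlap. COL4A1 and COL4A2, the chains found in nearly all basement membranes, were at 18.8 and 21.0 FPKM and at 17.7 and 22.1 FPKM. Their log2 differences were 0.15 (0.09 to 0.20) and 0.30 (0.24 to 0.37), with intervals apart. COL4A3 and COL4A4, known from kidney and lung, were under 1 FPKM, at 0.245 and 0.0788 FPKM and at 0.259 and 0.0908 FPKM.

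Chain ratios of type IV differed less between the pools than that of type V. COL4A5 to COL4A6 stood at 1.55 (1.46 to 1.65) in the control and 1.57 (1.48 to 1.67) in the NO pool. COL4A1 to COL4A2 stood at 1.07 (1.01 to 1.12) and 0.951 (0.918 to 0.985), with intervals apart and the higher chain changing. The COL5A1 to COL5A2 ratio differed 3.19-fold between the libraries.

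Among laminins, the trimeric proteins that found the basement membrane, LAMB1 and LAMC1 were lower and LAMA4 higher. LAMB1, the beta chain of the embryonic laminins (chromosome 1, 14681577 to 14715087), was at 158.6 FPKM (156.5 to 160.8) in the control and 95.4 FPKM (94.1 to 96.7) in the NO pool, a log2 difference of −0.73 (−0.75 to −0.70). LAMC1, the common gamma chain, was at 44.4 FPKM (42.9 to 45.8) and 30.5 FPKM (29.6 to 31.4). LAMA4, the alpha chain of laminins in vessel walls and muscle, was at 1.97 FPKM (1.82 to 2.12) and 4.14 FPKM (3.96 to 4.32), a log2 difference of 0.79 (0.70 to 0.88).

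The other laminin chains matched by symbol were low, and LAMA1 and LAMA5 were not matched, so their levels are not known here. LAMB2, a beta chain of mature muscle and nerve endings, was at 4.48 and 5.73 FPKM, so LAMB1 exceeded it 35.4-fold in the control and 16.7-fold in the NO pool. LAMC3 was at 1.86 and 1.61 FPKM with overlapping intervals. LAMA2, LAMA3 and LAMB4 were under 1 FPKM in both libraries, and LAMB3, a chain of epithelial laminin, was at 0.690 and 1.22 FPKM.

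NID1 and NID2, the nidogens that bridge laminin and type IV collagen, were both lower in the NO pool as deposited, NID2 by more. The NID2 to NID1 ratio was 4.70 (4.48 to 4.93) in the control and 3.71 (3.56 to 3.86) in the NO pool. NID2 was at 82.1 FPKM (80.3 to 83.9) in the control and 57.4 FPKM (56.3 to 58.6) in the NO pool. NID1 was at 17.4 FPKM (16.7 to 18.2) and 15.5 FPKM (14.9 to 16.1), a log2 difference of −0.16 that turned positive after trimmed mean and upper quartile scaling. COL18A1, whose cleaved end is endostatin (chromosome 7, 6650612 to 6681644), was at 145 FPKM (138.7 to 151.4) and 104 FPKM (99.9 to 108.9), a log2 difference of −0.47 (−0.56 to −0.38). COL15A1, its relative in muscle and capillary basement membranes, was far lower, at 0.0865 and 0.319 FPKM.

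Of the FPKM summed over the 36 collagen members, fibrillar chains made up 47.5% in the control pool and 31.6% in the NO pool. Those members lack COL1A1, a fibrillar chain, and a row spelled col14A1, so these shares do not cover all collagen. Type IV chains made up 24.5% and 39.7%, and COL18A1 18.2% and 19.4%. The summed fibrillar to type IV ratio was 1.94 in the control and 0.795 in the NO pool. Without COL2A1 it was 0.849 and 0.465, so the order of the libraries did not rest on that gene. These ratios lie within each library and are not affected by scaling between them. Type IV is only a part of the basement membrane role, and the part that was slightly higher. The whole role summed to 653.6 FPKM in the control and 530.5 in the NO pool, 1.23 times lower. Laminins summed to 213.0 and 139.5 FPKM. The role and laminin sums lack LAMA1 and LAMA5, which were not matched by symbol.

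**Figure D3:**
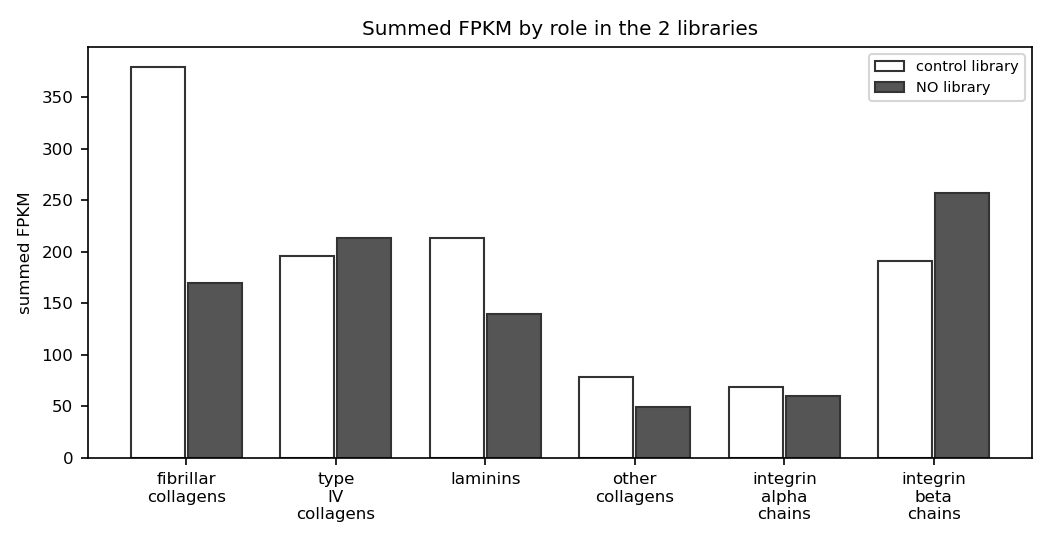
Summed FPKM of fibrillar collagens, type IV collagens, laminins, other collagens, integrin alpha chains and integrin beta chains, with 1 library per group. White bars are the control library and dark grey bars the NO library. COL18A1, COL15A1, NID1 and NID2 are in no bar, so the basement membrane role is not drawn whole. Fibrillar collagens go from 379.6 to 169.6, type IV collagens from 195.9 to 213 and integrin beta chains from 191 to 257.

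Other collagens were mostly lower, with COL19A1 and COL12A1 higher. Of 21 members 13 were measured, and the median log2 difference was −0.38. Below 0 were 9 of the 13, and 6358 of all 10824 measured genes. Past 2-fold, 2 were lower (15.4%) and 1 was higher (7.69%), against 10.3% and 3.65% of all measured genes. With only 13 genes, these counts do not set the group apart. The group includes collagens that sit on fibril surfaces, short-chain network formers, anchoring fibrils and transmembrane collagens.

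Type IX collagen, which decorates type II fibrils in cartilage, was lower in all 3 of its chains. COL9A2 (chromosome 23, 4824370 to 4834663) was at 23.5 FPKM (22.1 to 24.9) in the control and 5.24 FPKM (4.75 to 5.72) in the NO pool, 3.92-fold lower. COL9A1 was at 5.06 FPKM (4.67 to 5.46) and 2.61 FPKM (2.38 to 2.84), and COL9A3 at 5.66 FPKM (5.14 to 6.19) and 2.65 FPKM (2.37 to 2.93). COL9A2 exceeded COL9A1 4.63-fold in the control (4.196 to 5.12) and 2.00-fold in the NO pool (1.77 to 2.28), while COL9A3 and COL9A1 were near parity in both.

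COL19A1 and COL7A1 were singled out after their values were seen, as the 2 members past 2-fold that stayed under 5 FPKM in both libraries. COL19A1, a fibril-associated collagen known in mouse from developing muscle (chromosome 3, 82304939 to 82484565), was at 1.06 FPKM (0.871 to 1.24) in the control and 4.62 FPKM (4.31 to 4.93) in the NO pool. Its log2 difference of 1.45 (1.297 to 1.60) was the highest of all measured members. COL7A1, the anchoring fibril collagen under stratified epithelia, was at 2.69 FPKM (2.42 to 2.96) and 0.396 FPKM (0.326 to 0.467), 2.64-fold lower. Surface ectoderm markers summed to 64.4 and 16.2 FPKM, with 5 of 6 measured genes at least 2-fold lower, no gene at 0 and single genes from 0.551 to 17.8 FPKM in the control and from 0.108 to 4.83 FPKM in the NO pool. Their part in the COL7A1 value was not tested. With a pseudocount of 5, neither COL19A1 nor COL7A1 was past 2-fold.

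COL12A1, a fibril-associated collagen of tendon and fascia, was at 2.70 FPKM (2.53 to 2.87) in the control and 5.29 FPKM (5.10 to 5.49) in the NO pool. COL16A1, of the same fibril-associated class, had the opposite direction, at 3.55 FPKM (3.15 to 3.94) and 1.46 FPKM (1.28 to 1.65). COL23A1, a transmembrane collagen, was at 12.6 FPKM (11.2 to 14.0) and 6.75 FPKM (5.93 to 7.57), a log2 difference of −0.81 (−1.03 to −0.60).

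The other 5 measured members of this group differed less, with log2 differences from −0.38 to 0.11. COL8A2, a network former, was at 8.43 FPKM (7.43 to 9.42) and 7.69 FPKM (6.99 to 8.39), and COL13A1, another transmembrane collagen, at 5.51 and 6.01 FPKM; both pairs of intervals overlap. Of the type VI chains, which form beaded filaments, COL6A1 was at 1.95 and 2.01 FPKM, COL6A3 at 1.37 and 0.819 FPKM and the unmeasured COL6A2 at 0.665 and 0.545 FPKM. COL22A1, found at tissue junctions, was at 1.49 and 1.01 FPKM.

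Integrins differed in both directions, and none of those measured by 2-fold. Of 16 members 11 were measured, of which 0 passed 2-fold, against 10.3% of all measured genes lower and 3.65% higher. At 1.5-fold, 1 was higher and 2 were lower, against 9.59% and 22.4% of all measured genes. Intervals were apart for 9, against 70.9%. With only 11 genes, these counts do not set the integrins apart. Their median log2 difference was −0.04. That median turned to 0.04 after trimmed mean and 0.03 after upper quartile scaling. Summed alpha chains were at 68.5 FPKM in the control and 59.4 FPKM in the NO pool, and summed beta chains at 191 and 257 FPKM.

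ITGB1, the beta chain shared by most collagen and laminin receptors (chromosome 2, 13975831 to 14017232, ENSGALG00000007145), was the member with the highest FPKM in the NO pool. It was at 114.9 FPKM (113.1 to 116.8) in the control and 212 FPKM (209.7 to 213.9) in the NO pool, a log2 difference of 0.88 (0.85 to 0.90). It passed 2-fold after trimmed mean and upper quartile scaling. Against the summed 9 alpha chains, not all of which pair with it, ITGB1 was 1.68-fold higher in the control and 3.56-fold higher in the NO pool. That sum lacks ITGA3, ITGA5 and ITGA7, which were not matched by symbol, so it does not cover all alpha chains.

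Of the chains of alpha V integrins, receptors of vitronectin and fibronectin, ITGB5 and ITGB3 were lower and ITGAV higher. ITGB5 (chromosome 7, 27374149 to 27415070) was at 48.2 FPKM (46.7 to 49.8) in the control and 25.0 FPKM (24.2 to 25.9) in the NO pool, a log2 difference of −0.92 (−0.98 to −0.85). ITGB3, also the beta chain of the thrombocyte fibrinogen receptor, was at 24.7 FPKM (23.7 to 25.7) and 17.6 FPKM (17.0 to 18.3). ITGAV itself was at 5.54 FPKM (5.12 to 5.96) and 8.78 FPKM (8.35 to 9.21), so the ITGB5 to ITGAV ratio was 8.71 (8.02 to 9.46) and 2.85 (2.69 to 3.02). ITGB8, another alpha V partner, was at 1.56 and 1.49 FPKM, with overlapping intervals.

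Of the 9 alpha chains matched by symbol, ITGA1, a receptor for collagen and laminin, was the most abundant. It was at 26.4 FPKM (24.5 to 28.2) in the control and 18.5 FPKM (17.3 to 19.8) in the NO pool. ITGA4, a fibronectin and VCAM1 receptor chain, was at 11.8 FPKM (11.2 to 12.5) and 5.94 FPKM (5.56 to 6.32), the lowest log2 difference of the alpha chains at −0.89 (−0.997 to −0.78). ITGA6, a laminin receptor chain, was at 10.2 FPKM (9.56 to 10.7) and 12.1 FPKM (11.6 to 12.7).

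ITGA8, a receptor chain for nephronectin, was at 6.23 and 7.50 FPKM, and ITGA9, a tenascin receptor chain, at 5.97 and 4.24 FPKM. ITGB1 to ITGA4 went from 9.71 (9.15 to 10.3) in the control to 35.7 (33.5 to 38.0) in the NO pool, and ITGB1 to ITGA6 from 11.3 (10.7 to 12.0) to 17.4 (16.7 to 18.3). ITGA2B, the thrombocyte alpha chain, was at 0.744 FPKM (0.182 to 1.31) and 1.26 FPKM (0.725 to 1.804), from only 7 and 22 implied fragments on a short scaffold. Blood and thrombocyte markers, a list that includes ITGA2B, summed to 281 and 3424 FPKM, with 4 of 9 at least 2-fold higher. Those 4 are globins (HBG1, HBAA, HBE and HBAD), whereas the thrombocyte genes GP1BB and GP9 were at 2.31 and 4.95 FPKM and at 1.70 and 3.07 FPKM, and CD34 at 14.9 and 13.4 FPKM.

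The members below 1 FPKM on average numbered 21, with single values from 0.0275 to 1.302 FPKM. The NO pool had the higher value for 6 and the lower for 15, and intervals were apart for 10, of which 5 were higher and 5 lower. The lower ones included ITGB4, the hemidesmosome chain, at 1.302 and 0.351 FPKM, and ITGA11, a receptor chain for fibrillar collagen, at 0.598 and 0.105 FPKM. Higher ones included ITGB6, an epithelial chain, at 0.420 and 0.886 FPKM, and COL20A1, at 0.179 and 0.553 FPKM. ITGB2, the leukocyte chain, was at 0.0913 and 0.0808 FPKM, and COL10A1, of hypertrophic cartilage, at 0.0344 and 0.0275 FPKM from 3 and 4 implied fragments.

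Members that lie near each other in the genome did not always share a direction. Counting gaps of up to 100 kb between gene bodies gave 12 pairs, of which 6 had both members measured. Of these, 3 had the same sign and 3 opposite signs. COL18A1 and COL6A1 count as opposite, at −0.47 and 0.03 (−0.12 to 0.18), though the COL6A1 interval spans 0. That pair has 1 other row between its genes, and COL9A2 with COL16A1 has 8. COL4A1 and COL4A2, known in mammals to share a promoter region between them, are 374 bases apart and differed by 0.16 in log2 difference. COL4A5 and COL4A6, 6279 bases apart, differed by 0.02. Strand was not read, since the files do not give it.

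The widest splits were COL5A2 and COL3A1, 14283 bases apart, and COL9A1 and COL19A1, 8134 bases apart. COL5A2 was at 0.74 and COL3A1 at −2.03 on the log2 scale, a gap of 2.77 ± 0.11 (95% half-width). COL9A1 was at −0.75 and COL19A1 at 1.45, a gap of 2.20 ± 0.20. No other row of the deposited tables lies between the genes of either pair.

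**Figure D4:**
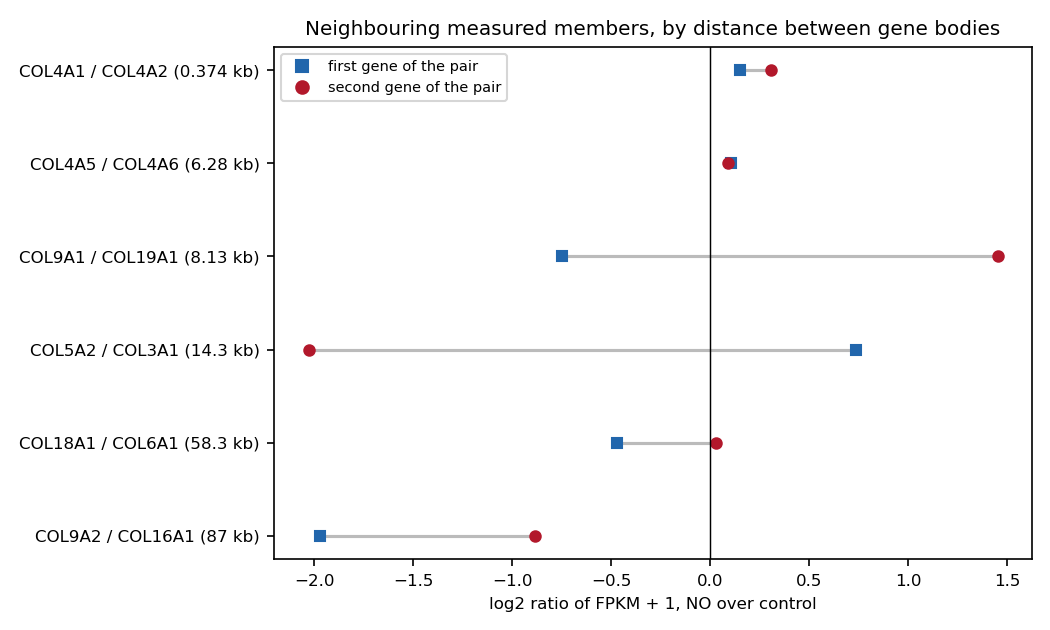
Log2 ratio of FPKM + 1, NO over control, for the 6 pairs with both members measured and at most 100 kb apart, ordered by the gap between gene bodies; squares are the first and circles the second gene on the chromosome. COL4A1 with COL4A2 and COL4A5 with COL4A6 sit close together, while COL9A1 with COL19A1 and COL5A2 with COL3A1 lie on opposite sides of 0.

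Genes that process collagen were spread around the background, with the lysyl oxidases, which crosslink collagen and elastin, at both ends. Of 25 matched genes 23 were measured. Past 2-fold, 1 was higher (4.35%) and 3 were lower (13.0%), against 3.65% and 10.3% of all measured genes. The median log2 difference of the list was −0.20. LOX was at 3.13 FPKM (2.86 to 3.41) in the control and 15.8 FPKM (15.3 to 16.3) in the NO pool, 4.06-fold higher. LOXL1 was at 81.6 FPKM (77.6 to 85.6) and 30.9 FPKM (29.1 to 32.7), 2.59-fold lower, and LOXL3 at 6.15 and 2.35 FPKM. P4HA3, a prolyl hydroxylase chain, was at 2.89 and 0.783 FPKM, whereas SERPINH1, the collagen chaperone, was at 60.1 and 50.8 FPKM.

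Genes of a list of 24 basement membrane partners and linked proteins, 18 measured, were spread widely, with a median log2 difference of 0.20. The list includes DAG1, SGCB and SGCD, which are cell membrane proteins and not parts of the basement membrane. Past 2-fold, 3 were higher (16.7%) and 5 lower (27.8%), against 3.65% and 10.3% of all measured genes. Those higher were SGCB, SGCD and FBLN2, and DAG1 was among those lower, so these shares are not of basement membrane components alone. NTN1, the laminin-related guidance cue netrin 1, was at 13.9 FPKM (12.7 to 15.03) in the control and 0.716 FPKM (0.519 to 0.913) in the NO pool. SMOC1, a secreted calcium-binding protein, was 4.78-fold lower. The laminin receptor dystroglycan, DAG1, was at 158.7 and 72.7 FPKM, and agrin, AGRN, at 56.8 and 27.1 FPKM.

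By contrast SGCB and SGCD, sarcoglycans that flank dystroglycan in muscle, were at 6.51 and 23.6 FPKM and at 2.52 and 10.6 FPKM. FBLN2 was at 49.5 and 103.9 FPKM, while its relative FBLN1 was at 44.7 and 16.3 FPKM. Cardiomyocyte markers had a median log2 difference of 2.64, and their part in the sarcoglycan, ITGB1 and LAMA4 values was not tested.

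Inside the cell, 23 of 26 matched genes of the integrin adhesion complex were measured, with a median of 0.03. Past 2-fold, 2 were higher (8.70%) and 3 lower (13.0%), against 3.65% and 10.3% of all measured genes. ITGB1BP2, the muscle protein melusin that binds the ITGB1 tail, was at 23.2 FPKM (21.6 to 24.9) in the control and 75.5 FPKM (73.2 to 77.8) in the NO pool. ITGB1BP3, the most abundant gene of the list, was at 752.9 and 387.8 FPKM, 1.94-fold lower. Its symbol is that of a nicotinamide riboside kinase, so it is a poor marker of the adhesion complex. ITGB1BP1 was at 8.01 and 8.42 FPKM. PARVA, a parvin of the kinase complex, was at 2.66 and 6.72 FPKM. ACTN4, a non-muscle actinin, was at 82.2 and 26.8 FPKM, and BCAR1, an adaptor of adhesion signalling, at 78.2 and 29.2 FPKM. Core members lay on both sides of 0, with TLN1, ILK and PXN at log2 differences of −0.56, −0.62 and −0.73, TLN2 and PARVB at −0.01 and 0.03, and LIMS1, FERMT2, VCL and LIMS2 at 0.18, 0.35, 0.40 and 0.77.

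Among 8 measured integrin ligands outside the collagens and laminins, 2 were lower by 2-fold or more (25%) and 0 higher. FN1, FBN2 and POSTN were listed but not matched by symbol. The shares of all measured genes were 10.3% and 3.65%, and the list median was −0.15. SPP1, osteopontin, was at 50.2 FPKM (46.9 to 53.6) in the control and 3.67 FPKM (3.07 to 4.27) in the NO pool, and VTN, vitronectin, at 33.7 and 9.30 FPKM. FBN1, fibrillin 1, was at 8.64 and 13.0 FPKM. Of 5 listed receptors that bind collagen without being integrins, 4 were not matched by symbol (DDR1, DDR2, GP6 and LAIR1). MRC2, the only match, was at 24.1 and 18.1 FPKM.

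Matrix proteases and their inhibitors had a median log2 difference of −0.05. Past 2-fold, 1 of 12 measured was lower (8.33%) and 0 were higher, against 10.3% and 3.65% of all measured genes. MMP17, a membrane-anchored protease, was at 11.7 and 2.03 FPKM. MMP15 was at 233.8 and 131.8 FPKM and TIMP3, an inhibitor bound to matrix, at 7.99 and 14.9 FPKM. Endocardial and endothelial markers summed to 101.1 and 174.6 FPKM, with 2 of 10 at least 2-fold higher, 0 lower, none at 0, and single genes from 1.09 to 24.6 FPKM and from 2.59 to 45.5 FPKM. Their part in these values was not tested.

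**Figure D5:**
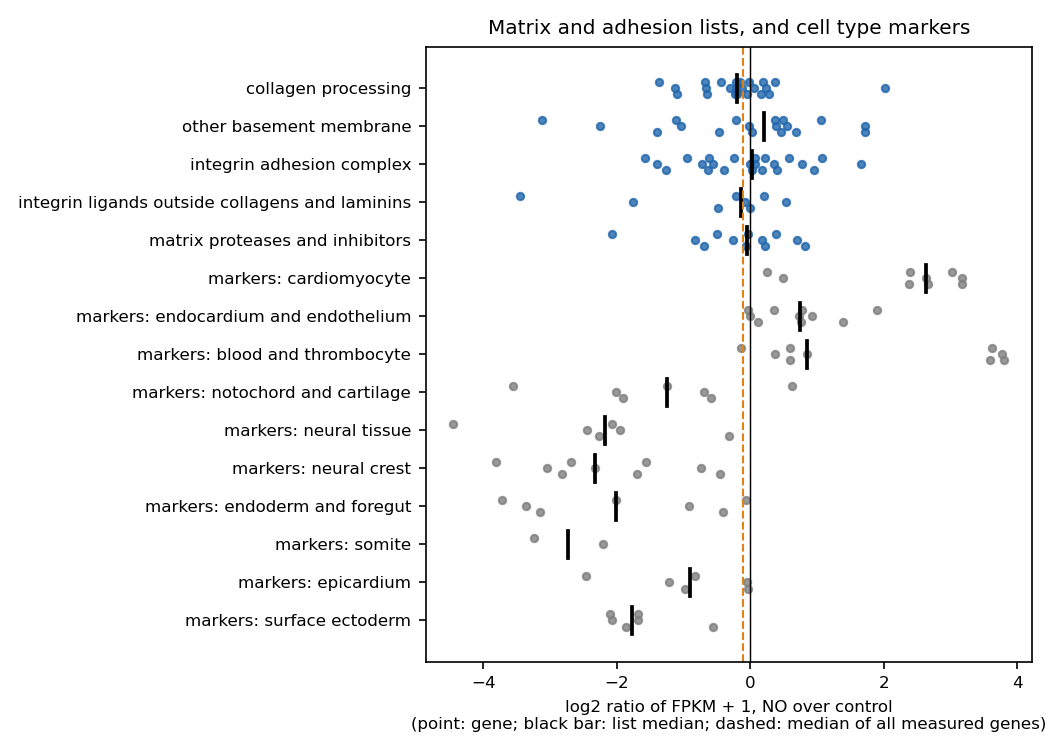
Log2 ratio of FPKM + 1, NO over control, for measured genes of 5 matrix and adhesion lists (blue) and 10 cell type marker lists (grey); black bars are list medians and the dashed line is the median of all measured genes. The 5 matrix lists have medians between −0.20 and 0.20, while the marker lists run from −2.73 for somite to 2.64 for cardiomyocyte genes.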

How the data were processed

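RNA sequencing of 1 pool of 10 hearts a group was used as deposited. STAR 2.4.2a placed the reads on galGal4 (Ensembl release 81) and Cufflinks 2.2.1 estimated expression, per the series design text; no source used here gives the strandedness. The deposited values are the authors' FPKM with 95% bounds, and no scaling between libraries is recorded. Rescaling without mitochondrial and the 20 most abundant genes multiplied the NO library by 1.00008. That factor is too near 1 to test the members' 2-fold calls, none of which changed.

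Rows of a symbol were summed. A bound lies 2 SD from the FPKM, so the squared ratio of FPKM to SD gives implied fragments, an underestimate for genes with several transcripts. Intervals of log2 ratios and of chain ratios combine both bounds. Deposited starts count from 0 (11 of 13 named mitochondrial genes then have a length divisible by 3), and 1 was added. Python 3.11.15, pandas 2.3.3 and numpy 2.4.6 were used, tested on simulated data.

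Members and lists were chosen with earlier results of these data known. Fully given are members past 2-fold with at least 5 FPKM in the higher library, the 3 most abundant of each role, and ITGB1; from the 6 matrix lists, the 3 largest differences, with other genes of those lists added as context after their values were seen. List genes were matched by exact symbol. Pseudocounts of 0.1 and 5, 2 other filters, 3 scalings, single rows and a 1.5-fold limit were tried. No sequence is printed, and 1 member is not reported by name here.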

Additional observations from a re-analysis of the deposited data

How the results depend on the processing

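The 5 members at least 2-fold lower numbered 4 to 7 under the other pseudocounts, filters and scalings, and 13 at 1.5-fold. The single member at least 2-fold higher became 2 with a pseudocount of 0.1 (LAMA4 added) and after trimmed mean or upper quartile scaling (ITGB1 added), 5 at 1.5-fold, and 0 with a pseudocount of 5 or a mean of at least 5 FPKM. The fibrillar median was −0.69 with a pseudocount of 5, −1.48 at a mean of at least 5 FPKM, which leaves 5 genes, −0.69 after trimmed mean and −0.70 after upper quartile scaling. The basement membrane median was 0.27 and 0.26 after those scalings, which multiply the NO library by 1.14 and 1.13 and let in LAMB3. The integrin median was −0.41 at a mean of at least 5 FPKM. The median of all measured members was −0.47 with a pseudocount of 0.1, −0.13 with one of 5, −0.11 without a filter, and −0.20 and −0.22 after the scalings, which moved that of all genes to 0.06 and 0.04. Signs of COL8A2, ITGB8 and NID1 turned under both scalings. COL19A1 and COL7A1 were no longer past 2-fold with a pseudocount of 5. Over the 2 pseudocounts and 3 scalings, 122 of 215 single-gene values stayed within their interval and 93 moved. The 122 include every value of the scaling by 1.00008, which could not move any of them. No paired analysis was possible because each group is 1 library, and for the same reason none could be left out. Beyond what each setting changes by its construction, the cause of these shifts was not tested. Depth was lowest for COL10A1 among all members (3 and 4 implied fragments) and for ITGA2B among measured ones (7 and 22).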

Other observations

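A collagen row whose symbol is spelled col14A1 in the files is outside the rule for members. It was at 2.77 FPKM (2.53 to 3.02) in the control pool and 1.35 FPKM (1.22 to 1.49) in the NO pool, a log2 difference of −0.68 (−0.80 to −0.56). This fibril-associated chain lay in the same direction as COL16A1 and opposite to COL12A1.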
